A study of Homo sapiens with 6 samples.

Results

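This report describes 8 keratin genes in LP-1, an established line of human multiple myeloma, a plasma cell cancer (cell type given as B lymphoblast): the hair keratins KRT81, KRT86 and KRT83, the simple epithelial keratins KRT7, KRT8 and KRT18, and the epidermal keratins KRT10 and KRT5. They were found by symbol among the 17579 genes of the deposited gene table, and their 15 transcripts by gene ID among 84276 transcripts. RNA-seq had been made from LP-1 cells carrying a viral guide RNA targeting AURKA, which encodes the cell division kinase Aurora A (3 AURKA-guide libraries, genotype given as Aurora A-KO), and from LP-1 cells carrying a viral guide without a target (3 control libraries). Cells of both groups were infected with virus and grown with 10% FBS, and the labels do not say whether the cells were a pool or a clone, or whether replicates came from separate cultures. P-values therefore measure only the spread between these libraries, which may be technical. The 8 genes were chosen by earlier results of the same comparison, their count differences between the AURKA-guide and control libraries, so these differences are given as a description, and no support is drawn from any test of them.

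Total expected counts (reads divided among transcripts by RSEM, not always whole) lay between 17724174 and 18523594 per library, so that 1 CPM (normalised count, scaled to library size) stood for about 18.3 reads. AURKA had 113, 119 and 113 CPM in the AURKA-guide libraries and 189, 192 and 195 CPM in the control libraries, a log2 difference of -0.74 (SE 0.0488; edgeR quasi-likelihood adjusted p = 1.55e-06), so RNA of the targeted gene was reduced and not absent. The plasma cell markers SDC1, CD38, TNFRSF17, PRDM1, IRF4, XBP1 and MZB1 all passed the filter on low counts. SLAMF7, another plasma cell marker, also passed it at only 8.82 to 21.5 reads per library, so passing does not mean a high level. Of the 24 epithelial identity genes that were present, 10 passed the filter. The highest was LSR at 75.3 CPM in AURKA-guide and 76.7 CPM in control libraries. MUC1 had 20.8 and 25.2 CPM and ITGA6 18.3 and 18.1 CPM in the same order. CDH1 passed at 8.74 to 21.0 reads, while EPCAM and the simple epithelial keratin KRT19 had at most 1 read in any library. In bulk RNA, a change in the number of cells with a transcript and a change in its amount per cell cannot be told apart.

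Keratins are the intermediate filament proteins of epithelia. A type I and a type II keratin pair to form the filament, and the pair is typical of the tissue: KRT8 with KRT18 in simple epithelia such as liver and gut, KRT5 with KRT14 in the basal layer of the epidermis, KRT1 with KRT10 above it, and the hair keratins in the cortex and cuticle of hair and in nails. Of the members, 6 are type II and 2, KRT18 and KRT10, are type I. Plasma cells are not epithelial, and vimentin is their main cytoplasmic filament protein.

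The coding sequences of KRT81 and KRT86 are shown first because they decide how well reads of the genes can be told apart. They are from GENCODE release 29, in the transcripts paired there with the same RefSeq versions as in the deposited table. Aligned end to end, KRT81 and KRT86 shared 90.1% of 1522 columns, KRT81 and KRT83 89.3% and KRT86 and KRT83 89.3%, whereas KRT81 shared 64.2% with KRT8 and 46.8% with KRT10. The longest stretch without a difference between KRT81 and KRT86 was 605 bases.

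The 60 coding bases in which KRT81 and KRT86 differed most lie towards the end of the coding sequence, at coding bases 1249 to 1308 of KRT81. KRT86 differed there at 14 positions and KRT83 at 7, and capitals mark every position at which the sequences are not all alike:
KRT81: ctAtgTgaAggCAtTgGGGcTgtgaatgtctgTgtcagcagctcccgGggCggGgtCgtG
KRT86: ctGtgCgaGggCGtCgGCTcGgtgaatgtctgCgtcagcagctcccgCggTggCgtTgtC
KRT83: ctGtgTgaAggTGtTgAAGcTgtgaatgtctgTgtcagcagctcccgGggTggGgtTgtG

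A read from within the identical stretch could not be assigned to KRT81 or KRT86 by its bases, and a read across the window shown could. Of all 50-base windows of the KRT81 mRNA, 38.4% were found letter for letter in a KRT86 transcript, and 33.3% of those of KRT86 in a KRT81 transcript. With 100-base windows these shares were 29.4% and 25.4%. The read length is not given in the sources used here. KRT8 and KRT18 share 50-base windows with other genes too, 37.1% and 35.1% of theirs, mostly with their pseudogenes, while KRT10 had no such window. Such windows made up 12.8% of those of KRT83 and 3.99% of those of KRT5. Counts of KRT81, KRT86, KRT83, KRT8, KRT18 and KRT5 are therefore uncertain to the extent that reads could be divided wrongly. KRT7 was not in this sequence comparison, so how far its reads could be divided wrongly is not known.

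The hair keratins KRT81 and KRT86, type II keratins of the hair cortex, were both higher in the AURKA-guide libraries, by 2.46-fold and 2.18-fold. KRT81 had 364, 343 and 336 reads in the AURKA-guide libraries and 155, 128 and 138 in the control libraries, or 18.9 ± 0.877 CPM and 7.71 ± 0.596 CPM (SD, n = 3 each). All 3 AURKA-guide libraries lay above all 3 control libraries, and the log2 difference was 1.30 (SE 0.0899). KRT86 had 449, 420 and 452 reads in the AURKA-guide libraries and 193, 205 and 202 in the control libraries, or 24.0 ± 0.945 CPM and 11.0 ± 0.657 CPM (SD, n = 3 each). Here too the groups did not overlap, with a log2 difference of 1.13 (SE 0.0801).

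Because reads may pass between these copies, their sum is the firmer value. It does not remove sharing with other genes. The pseudogene KRT87P held 9.04% of the 50-base windows of KRT81 and 7.80% of those of KRT86. KRT81 and KRT86 together had 813, 763 and 788 reads in the AURKA-guide libraries and 348, 333 and 340 in the control libraries, and the summed row was 2.30-fold higher (log2 difference 1.2, SE 0.0657). With KRT83 added the fold was 2.28. The share of KRT81 in the sum was 44.7%, 44.9% and 42.6% in the AURKA-guide libraries and 44.6%, 38.4% and 40.6% in the control libraries. These shares overlapped between the groups.

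KRT83, the third hair keratin of the locus, stayed at a few reads and was not tested. It had 0, 8.39 and 5.5 expected counts in the AURKA-guide libraries and 5.76, 3.68 and 3.16 in the control libraries. The groups overlapped, and the 0 in AURKA-guide replicate 1 allows a level of up to 0.164 CPM (3 counts of that library's total, for counting error only). At so few reads KRT83 was too low for the test across genes, and a difference between the groups was not detectable at this depth.

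**Figure D1:**
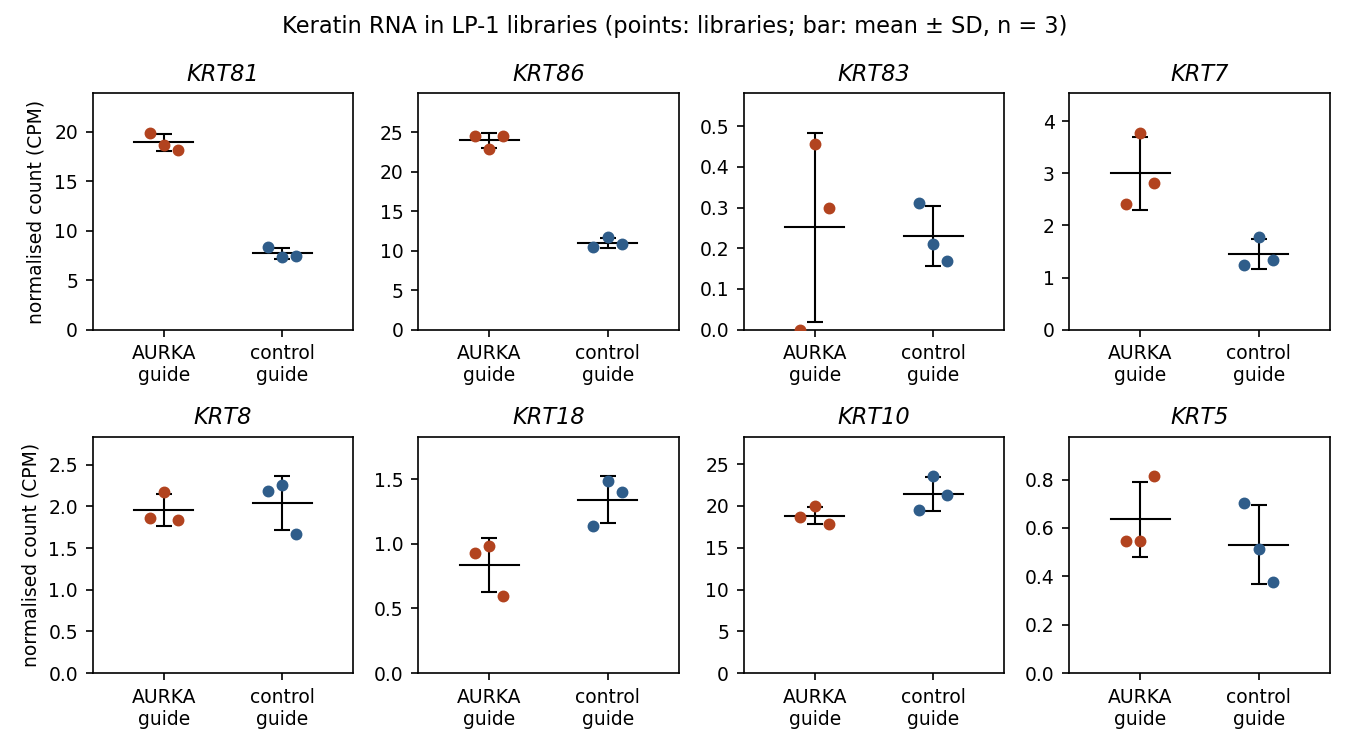
Normalised count (CPM, linear axes from 0) of the 8 keratin genes in each library, AURKA guide left and control guide right, with points for libraries and bars for the mean ± SD (n = 3 each). KRT81, KRT86 and KRT7 have all AURKA-guide points above all control points, KRT18 has them all below, and the other 4 genes overlap.

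Of the simple epithelial keratins, KRT7 was higher in the AURKA-guide libraries and KRT8 and KRT18, which pair with each other, were not. KRT7, a type II keratin of ducts and glands, had 44.0, 69.2 and 51.9 reads in the AURKA-guide libraries and 23.0, 31 and 25 in the control libraries. The groups did not overlap, and the log2 difference was 1.05 (SE 0.225), at 3.0 ± 0.702 CPM and 1.45 ± 0.281 CPM (SD, n = 3 each). Without AURKA-guide replicate 2, the highest library, the log2 difference of KRT7 was 0.85, without AURKA-guide replicate 3 it was 1.09 and without control replicate 1 it was 0.94.

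KRT8, the type II partner of KRT18, had 34.0, 39.9 and 33.9 reads in the AURKA-guide libraries and 40.5, 39.5 and 31.0 in the control libraries, with overlapping groups and a log2 difference of -0.07 (SE 0.203), which was 0.017 without control replicate 2. KRT18 had 17, 18 and 11 reads in the AURKA-guide libraries and 21, 26 and 26 in the control libraries. All 3 AURKA-guide libraries were below all 3 control libraries, and the log2 difference was -0.67 (SE 0.272), or -0.80 to -0.48 with 1 library left out. The ratio of KRT18 to KRT8 in FPKM (counts scaled to transcript length and library size) was 0.635, 0.570 and 0.417 in the AURKA-guide libraries and 0.648, 0.839 and 1.06 in the control libraries.

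The epidermal keratins overlapped between the groups. KRT10, the type I keratin of the upper epidermal layers, had 342, 366 and 330 reads in the AURKA-guide libraries and 361, 412 and 397 in the control libraries, a log2 difference of -0.19 (SE 0.0839). It was -0.11 without control replicate 2 and between -0.25 and -0.15 without any other single library. KRT5, the type II keratin of the basal layer, had 10, 10 and 15 reads in the AURKA-guide libraries and 13, 9 and 7 in the control libraries, a log2 difference of 0.26 (SE 0.358). At so few reads it moved with single libraries, to 0.040 without AURKA-guide replicate 3, 0.054 without control replicate 3 and 0.51 without control replicate 1.

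In all, 7 of the 8 members passed the filter on low counts. At an adjusted p under 0.05 over all genes, the edgeR fit put KRT81, KRT86 and KRT7 among the genes called higher, a count that follows from how the members were chosen. The call of KRT7 was lost without AURKA-guide replicate 2 or 3 and without control replicate 1. Of the 13138 genes in that fit, 2.03% were called, 0.959% higher and 1.07% lower, and 10.5% had AURKA-guide libraries all above and 10.3% all below the control libraries. Nothing is read from the members' share. The median log2 difference was 0.26 over the 7 members tested, which is the value of KRT5, and -9.41e-05 over all genes tested. Nothing is read from this median either, since the members were chosen by the same comparison.

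Per transcript length, the order of the keratins differed between the groups. In the AURKA-guide libraries KRT86 was at 10.6 ± 0.448 FPKM, KRT81 at 9.94 ± 0.437 and KRT10 at 8.80 ± 0.455, while in the control libraries KRT10 was at 9.97 ± 0.865 FPKM, KRT86 at 4.86 ± 0.266 and KRT81 at 4.03 ± 0.329 (SD, n = 3 each). In the AURKA-guide libraries KRT86 and KRT81 overlapped in range, and both lay above every KRT10 value. In the control libraries each of the 3 genes was apart from its neighbour in the order. Next came KRT7 at 1.73 ± 0.276, KRT80 at 1.51 ± 0.342, KRT8 at 1.09 ± 0.101 and KRT18 at 0.593 ± 0.142 FPKM in the AURKA-guide libraries, where KRT7 overlapped with KRT80 and KRT80 came close to KRT8. In the control libraries KRT80 was at 1.39 ± 0.129, KRT8 at 1.13 ± 0.173, KRT18 at 0.940 ± 0.132 and KRT7 at 0.770 ± 0.142 FPKM, and KRT8, KRT18 and KRT7 overlapped with their neighbours. KRT5, at 0.277 ± 0.0635 FPKM in AURKA-guide and 0.227 ± 0.0702 FPKM in control libraries, and KRT83, at 0.133 ± 0.122 and 0.123 ± 0.0416 FPKM in the same order, were lowest.

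**Figure D2:**
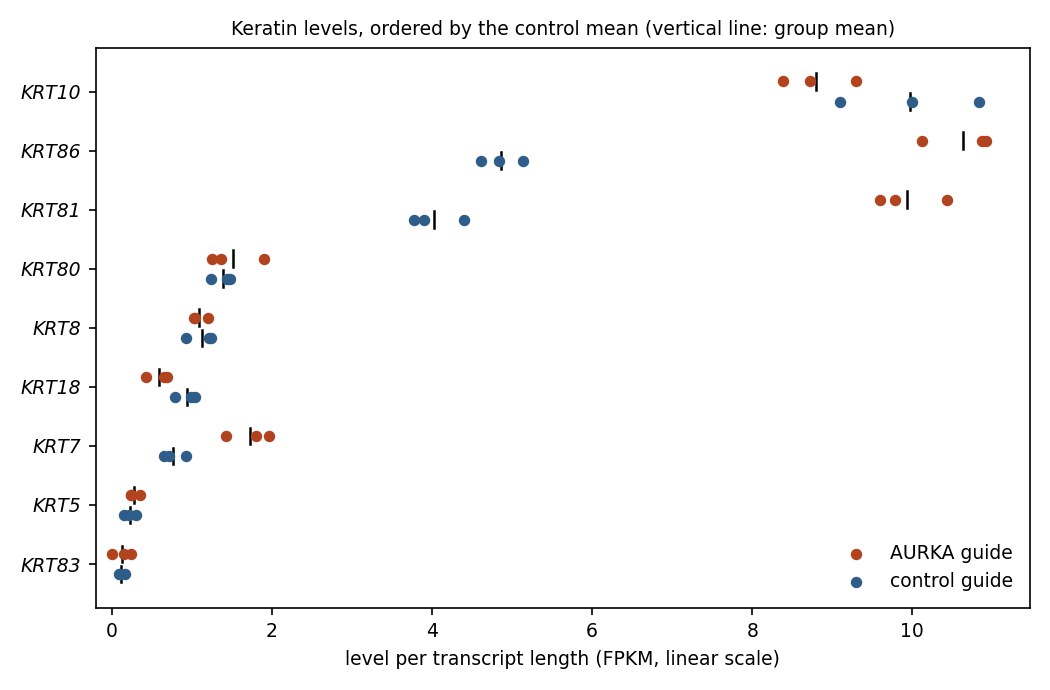
Level per transcript length (FPKM, linear scale) of the 8 tested keratin genes and KRT83 in each library, AURKA guide above control guide for each gene, ordered by the control mean; vertical lines are group means. KRT86 and KRT81 lie near 5 and 4 FPKM in the control libraries and near KRT10 in the AURKA-guide libraries.

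KRT81 and KRT86 took 58.2%, 55.4% and 59.4% of all keratin reads in the AURKA-guide libraries and 37.8%, 35.4% and 36.2% in the control libraries. The summed level of all 13 type II keratins in the table was 25.4 ± 0.509 FPKM in AURKA-guide and 12.5 ± 0.383 FPKM in control libraries, whereas that of the 8 type I keratins was 9.43 ± 0.615 and 10.96 ± 0.998 FPKM in the same order (SD, n = 3 each). The ratio of type II to type I was 2.76, 2.49 and 2.85 in the AURKA-guide libraries and 1.30, 1.06 and 1.10 in the control libraries. The higher hair keratin RNA was thus not matched by higher RNA of the type I keratins in the table. KRT81 and KRT86 together made up 20.6 FPKM of the type II sum in AURKA-guide and 8.89 FPKM in control libraries. The type II sum and the ratio thus mainly follow these 2 genes, which were chosen by the same comparison. KRT10 made up most of the type I sum, at 8.80 FPKM in AURKA-guide and 9.97 FPKM in control libraries. Of 14 other hair keratins looked up, 2 were in the table, and of 16 other type I epithelial keratins 5, and the rest were not assessed.

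**Figure D3:**
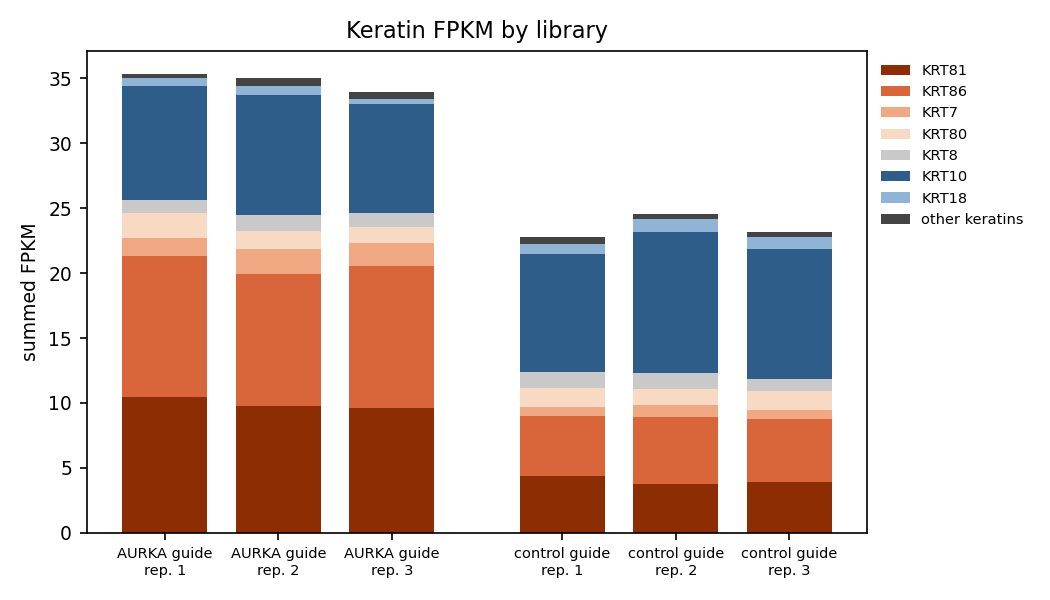
Summed FPKM of the keratin genes in each library, stacked by gene, with AURKA-guide libraries left and control libraries right. KRT81 and KRT86 (brown and orange) fill more than 19 FPKM in each AURKA-guide library and about 9 FPKM in each control library, while KRT10 (dark blue) stays between 8.39 and 10.83 FPKM in all 6.

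Besides the members, 13 keratin genes were in the table, and only KRT80, a type II keratin, passed the filter. KRT80 had 136, 97.8 and 91.1 reads in the AURKA-guide libraries and 107, 86.5 and 105 in the control libraries, with a log2 difference of 0.11 (SE 0.155; edgeR adjusted p = 0.752) that became -0.087 without AURKA-guide replicate 1. The other 12 had at most 2.79 reads in a library, and 5 of them had none in any. KRT32, the only type I hair keratin in the table, was at 0 in all 6 libraries. Of the type II hair keratins outside the members, KRT85 had at most 2.79 reads. Of 12 keratin-associated proteins, which embed hair keratins in a matrix and were looked up after the table was seen, only KRTAP4-1 passed the filter, with a log2 difference of 0.22 (SE 0.155; edgeR adjusted p = 0.506).

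The 3 higher members lie side by side on chromosome 12. In the RefSeq table of GRCh38.p14 KRT81 lies within the span of KRT86 on the opposite strand (strands from GENCODE), and in GENCODE release 29 their exons do not overlap. The GENCODE span of KRT86 also overlaps that of KRT7, on the same strand and with no shared exon base. KRT8 and KRT18 lie head to head on opposite strands with 525 exon bases in common. Whether counting used the strand is not given in the sources used here, so reads of overlapping genes may not be fully separated. The 5 tested genes on each side of the hair keratin locus include KRT7, KRT5, KRT8 and KRT18, and the other 6 were not called by edgeR, although ATG101 had an unadjusted p of 0.0235. On the KRT7 side, KRT80 was at 0.11, ATG101, an autophagy gene, at -0.15 (SE 0.0607), NR4A1, a nuclear receptor, at -0.23 (SE 0.183) and ACVR1B, an activin receptor, at -0.05 (SE 0.0831) on the log2 scale. On the other side, beyond KRT5, KRT8 and KRT18, the translation factor EIF4B was at 0.09 (SE 0.0471) and the tensin TNS2 at -0.28 (SE 0.231).

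**Figure D4:**
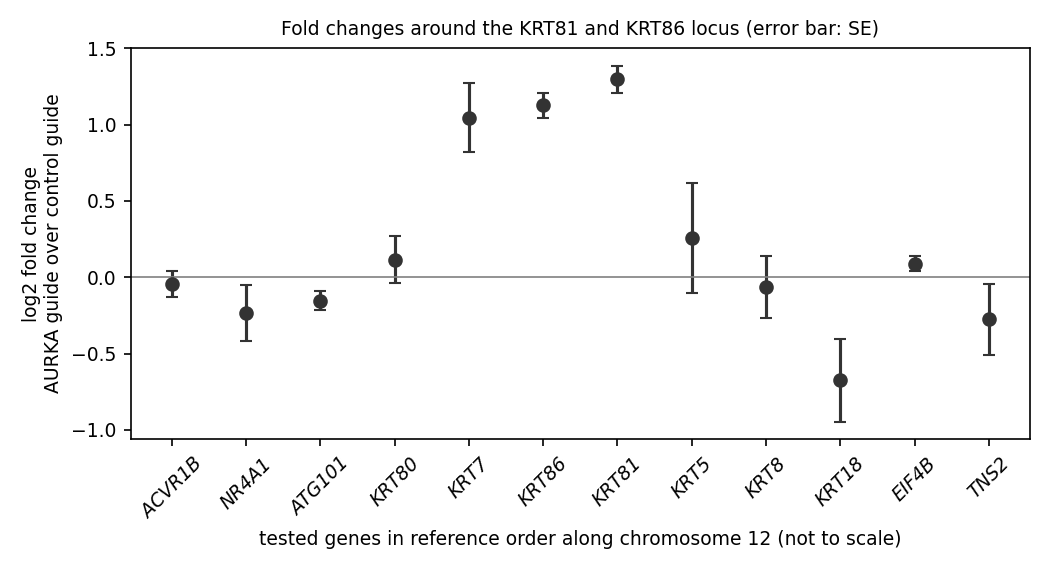
Log2 fold change, AURKA guide over control guide, with its SE, for tested genes in reference order along chromosome 12 around KRT86 and KRT81; the spacing is not to scale. KRT7, KRT86 and KRT81 lie at 1.05, 1.13 and 1.30, and every other gene shown lies between -0.67 and 0.26.

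At the transcript level the rise of KRT86 was carried by NM_001320198.1. It held 399, 419 and 450 reads in the AURKA-guide libraries and 191, 205 and 202 in the control libraries, a log2 difference of 1.07 (SE 0.122). The model XM_017019296.1 of KRT86 held 50.7 reads in AURKA-guide replicate 1, 11.3% of the gene there, and none in the other 5 libraries. KRT81 has 1 transcript in the table, NM_002281.3, whose counts equal those of the gene. Its log2 difference in the fit over 43979 transcripts was 1.30 (SE 0.147), against an SE of 0.0899 for the same counts in the fit over genes.

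KRT7 reads were assigned to 3 predicted models. The non-coding model XR_001748699.2 held 29, 60.9 and 19.5 reads in the AURKA-guide libraries and 18.4, 29.4 and 25 in the control libraries, and XM_017019294.1 held 15.0, 0 and 30.8 reads in the AURKA-guide libraries and 1.63, 0 and 0 in the control libraries. The groups overlapped for each model although they did not for the gene. KRT10 reads lay mainly in NM_000421.3, with 336, 358 and 296 in the AURKA-guide libraries and 340, 392 and 377 in the control libraries. KRT18 reads lay in NM_199187.1 except in control replicate 1, where NM_000224.2 held 8.91 of them. In the edgeR fit 1 of 43979 transcripts, that of IGFBP3, was called (0.00227%), against 891 with DESeq2 (2.04%).

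The authors' deposited transcript table also compares an NSD2 guide with the same control name. NSD2 is the histone methyltransferase that the t(4;14) translocation brings under immunoglobulin control, and the series title names it as a substrate of Aurora A. For KRT81 the authors' deposited table gives a log2 fold change of 1.30 with the AURKA guide and 0.46 with the NSD2 guide (p = 0.111, q-value 0.999976). For NM_001320198.1 of KRT86 the authors' deposited table gives 1.07 with the AURKA guide and 0.36 with the NSD2 guide (p = 0.0802, q-value 0.977). Of the 14 member transcripts with an NSD2 value in the authors' deposited table, none was past a q-value of 0.05, while 1.78% of all transcripts with a value were, and 1.55% in the AURKA-guide comparison. The comparisons share control libraries by name, and the NSD2-guide libraries were not analysed here, so the difference between the guides was not tested, and the sign of the NSD2 values was taken to run as for the AURKA guide, whose sign was checked against the counts. In the authors' deposited table of 229 genes changed by the AURKA guide, KRT86 (log2 fold change 1.13) and KRT81 (1.30) are listed and the other 6 members are not.

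**Figure D5:**
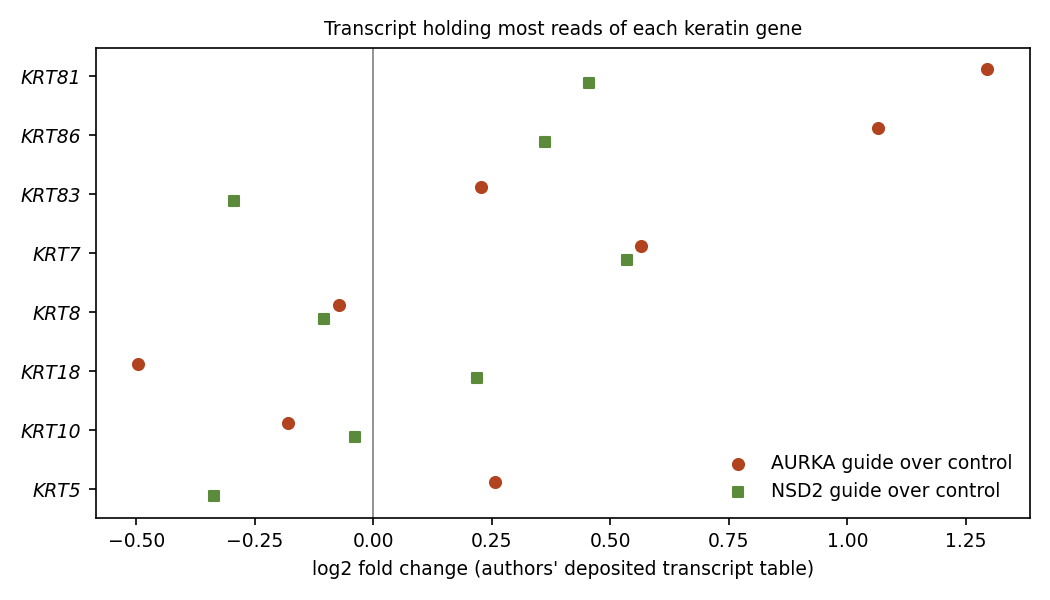
Log2 fold change in the authors' deposited transcript table for the transcript with most reads of each keratin gene, with the AURKA guide (circles) and the NSD2 guide (squares), each over control, with no error bars. KRT81 and KRT86 lie at 1.30 and 1.07 with the AURKA guide and at 0.46 and 0.36 with the NSD2 guide.

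Among other intermediate filament proteins, lamin A/C and vimentin fell. The table held 15 of them, of which 6 were tested, 2 were called lower and 0 higher (edgeR), against 1.07% and 0.959% of all genes, and the median log2 difference of the 6 was 0.063, of the opposite sign. Lamin A/C (LMNA), of the nuclear lamina, had 362, 349 and 338 CPM in the AURKA-guide libraries and 471, 513 and 424 CPM in the control libraries (log2 difference -0.43, SE 0.0610, edgeR adjusted p = 0.0017). Vimentin (VIM), the most abundant of them, had 1141, 1121 and 1107 CPM in the AURKA-guide libraries and 1351, 1377 and 1303 CPM in the control libraries (log2 difference -0.26, SE 0.0414, edgeR adjusted p = 0.0037). In both genes the groups did not overlap. At 601 ± 7.66 FPKM in AURKA-guide libraries and 716 ± 14.3 FPKM in control libraries (SD, n = 3 each), vimentin exceeded every keratin by far.

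Genes that anchor, regulate or accompany keratins in epithelia passed the threshold in 1 case. The hair follicle and epidermis factors had 13 tested genes, of which LEF1, a Wnt pathway factor active in hair follicles and lymphocytes, rose by 0.22 on the log2 scale (SE 0.0442, edgeR adjusted p = 0.0164), at 295, 300.0 and 299 CPM in the AURKA-guide libraries and 261, 256 and 252 CPM in the control libraries. This is 1 of 13 genes, where 0.959% of all genes tested were called higher. The call was lost without AURKA-guide replicate 1, 2 or 3 (adjusted p = 0.0774, 0.112 and 0.128 with edgeR) and without control replicate 1 (0.105). HOXC13, a direct activator of hair keratin genes, had at most 1 read. None of 11 tested plakin and desmosome genes passed with edgeR or DESeq2, nor of 10 epithelial identity genes, 3 cornified envelope and hair shaft genes, or 12 keratin partners and chaperones, while 3, 2, 0 and 6 of them had an unadjusted edgeR p under 0.05. Among all 13138 genes tested, 2118 had an unadjusted edgeR p under 0.05, so nothing is read from these counts. Without control replicate 3, whose removal raised the calls over all genes to 2034, 2 plakin and desmosome genes, 1 epithelial identity gene and 7 partners and chaperones were called. GC correction called PERP (adjusted p = 0.0029 with edgeR), HSPB1 (0.0084) and HSPA8 (0.014), and the replicate block called HSPB1 (0.0085). Over all genes tested, 797 were called with GC correction and 385 with the replicate block, against 267 (2.03%) in the fit without these changes. The smallest p-values there belonged to PERP (-0.20, SE 0.0693) and MACF1 (0.11, SE 0.0484), to MUC1 (-0.27, SE 0.0762) and ITGB4 (-0.52, SE 0.208), to TCHH (0.057, SE 0.0577) and FLG2 (0.18, SE 0.331), and to HSPB1 (-0.27, SE 0.0781) and HSPA8 (0.13, SE 0.0395), all log2 differences. The summed level of the 24 epithelial identity genes in the table was 137, 137 and 133 CPM in the AURKA-guide libraries and 142, 154 and 136 CPM in the control libraries, and these ranges overlapped.

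Few markers of other cells passed the filter on low counts, and the highest, KLRD1, had 8.81 CPM in AURKA-guide and 8.65 CPM in control libraries. Of 6 T and NK cell, 6 myeloid, 6 stromal and 4 erythroid markers, 5, 5, 6 and 4 were present and 1, 2, 1 and 0 were tested. Of those tested, 0 passed with edgeR or DESeq2, with 0 at an unadjusted edgeR p under 0.05. The tested ones were KLRD1 (0.021, SE 0.147), CD68 (-0.35, SE 0.171), LYZ (0.23, SE 0.212) and ACTA2 (0.098, SE 0.131), given as log2 differences. Their summed levels ran over 8.66 to 9.54, 5.16 to 5.87, 5.14 to 5.94 and 0.113 to 0.386 CPM in the AURKA-guide libraries, and over 6.69 to 11.1, 5.35 to 6.12, 4.78 to 5.81 and 0.0537 to 0.464 CPM in the control libraries, with overlapping ranges. Of the 10 tested plasma cell and t(4;14) markers, CD38 rose (log2 difference 0.38, SE 0.0456, edgeR adjusted p = 4.16e-04) and FGFR3 fell (-0.24, SE 0.0565, edgeR adjusted p = 0.0424), and 8 did not pass, where 2.03% of all genes tested were called. With GC correction 4 of the 10 were called, and without control replicate 3 it was 3. Over all genes these 2 settings called 797 and 2034, against 267 in the fit without these changes. The call of FGFR3 was lost without AURKA-guide replicate 1, 2 or 3 (adjusted p = 0.0633, 0.232 and 0.269 with edgeR) and without control replicate 1 or 2 (0.209 and 0.0808).

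Over the 6 libraries, the genes most like the sum of KRT81 and KRT86 by Pearson's r of log2(CPM + 0.5), among 10247 genes with at least 5 CPM on average, were OLFML2A (0.998), IGFBP3 (0.998), PALLD (0.995), LHFPL2 (0.994) and CCR1 (0.992). The most opposite were AURKA (-0.999), TLE2 (-0.997) and GNG7 (-0.996). The libraries fall into the 2 groups, so such an r mainly reflects the gap between them, and 262 genes had an r above 0.9. KRT10 had an r of -0.715 and KRT80 of 0.270.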

How the data were processed

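RSEM, BWA, Bowtie2 and the build hg19 are named in the submitters' processing notes, without versions or roles, and strandedness and read length are likewise not stated there. Files that the authors deposited hold expected counts per gene and transcript (44.8% of gene values not whole), FPKM per gene, and comparison tables with log2 fold changes, p-values and q-values, DESeq2 being named per the file headers. Total counts were 17724174 to 18523594 per library.

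Counts were rounded and passed to edgeR 4.0.16 under R 4.3.3 (filterByExpr, TMM, quasi-likelihood F test, Benjamini-Hochberg at 0.05, AURKA guide over control); SEs come from the F statistic. CPM uses TMM-scaled library sizes. The test was checked on simulated data. Replicates differed by more than counting noise (chi-square per gene 2.30 to 11.1). Sequences were compared with Biopython 1.88.

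The members and gene lists were chosen with earlier results of these data known. Named are the members, further keratins that passed the filter, called genes of each list or else the 2 with the smallest p, for the lists of epithelial genes, the 5 genes most and 3 least like KRT81 and KRT86, and 5 tested neighbours on each side. Others were chosen after their values were seen.

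Alternatives were a replicate block, a GC correction (natural spline with 5 degrees of freedom on the GC content of the longest coding transcript), both together, no filter, a mean of 10 CPM, library size alone, DESeq2 size factors, DESeq2's Wald test (1.42.0), limma 3.58.1 on log2(FPKM + 1) or log2(FPKM + 0.1), each library left out, and close copies summed.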

Additional observations from a re-analysis of the deposited data

How the results depend on the processing

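Over 16 alternatives each, the log2 difference was 1.12 to 1.39 for KRT81 and 0.99 to 1.22 for KRT86. KRT7 ranged from 0.62 (on log2(FPKM + 1), where the pseudocount compresses low genes) to 1.21, and AURKA from -0.77 to -0.73. The count of changed genes, 267, was 797 with GC correction, 894 with the replicate block and GC correction, 385 with the replicate block alone, and 98 to 2034 with a library left out (2034 without control replicate 3); the cause was not tested. The count of changed transcripts, 1 with edgeR, was 891 with the DESeq2 Wald test, 0 with the replicate block (1118 at an unadjusted p under 0.05) and 0 to 0 with a library left out (2084 to 3040 at an unadjusted p under 0.05). FGFR3 was past the threshold in 9 of its 18 alternatives. Directions turned, none past the threshold, for KRT8 without control replicate 2 (0.017; transcript NM_002273.3 0.034, range -0.18 to 0.034 with a library left out), KRT80 without AURKA-guide replicate 1 (-0.087, range to 0.23), XR_001748699.2 of KRT7 without AURKA-guide replicate 2 (-0.018, range to 0.89), XM_005257343.3 of KRT10 without AURKA-guide replicate 1 (0.026, range from -1.53), FLG2 without AURKA-guide replicate 2 (-0.20, range to 0.44), and KLRD1 with GC correction (-0.048), with the replicate block and GC correction (-0.037), without AURKA-guide replicate 3 (-0.0084) and without control replicate 2 (-0.15, range to 0.21). Same-numbered libraries of the groups had correlations of 0.11, -0.10 and 0.28 in their deviations from the group means. Not every library correlated best with its own number. With 3 libraries per group, these values cannot decide whether the numbers pair the libraries. HSPB1 was called with the replicate block, which changed no other call among the named genes. Genes at a few reads, such as KRT83 and KRT5, are limited by depth.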
